A study of Mus musculus with 6 samples.

Results

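Expression of 79 genes of the cell cycle machinery was examined in pituitary glands of wild-type mice and of mice labelled Bmal1-/-, a genotype named for the clock factor BMAL1. The genes are the cyclins, the cyclin-dependent kinases (CDKs) and their regulators, the CDK inhibitors, the replicative helicase subunits, the E2F factors and a few further proliferation genes. They were taken by gene symbol from the array's probe annotation, out of 12393 genes with a probe set of their own. Of the 79, 70 fall into 9 role groups, and 9 others carry a symbol that begins with the same letters, such as Cdk5rap3 or Cdc73. Each gene is represented by its brightest probe set over all 6 arrays.

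The mice were C57BL/6J males of 8 to 12 weeks, either wild type or labelled Bmal1-/-, and lived under a cycle of 12 hours light and 12 hours dark. Glands were collected at zeitgeber time 12, when the lights go off. RNA from 3 glands was pooled for each Affymetrix array, with 3 arrays per genotype: replicates 1 to 3 are wild type and replicates 4 to 6 are labelled Bmal1-/-. Each pool is a different set of animals, so the spread is between pools, and differences among the animals in a pool cannot be seen. Values are linear array intensities, and differences are given on the log2(intensity + 16) scale, on which small signals change less than on a plain ratio scale. A difference was called when limma's adjusted p, over all tested probe sets, was under 0.05.

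A cell divides when cyclins bind CDKs and switch them on in turn: D cyclins with CDK4 and CDK6 start the process by releasing E2F factors from RB1, cyclin E and A with CDK2 carry DNA replication, and cyclin B with CDK1 drives mitosis. The inhibitors of the CDKN1 family act on most of these kinases, and those of the CDKN2 family on CDK4 and CDK6. In the pituitary, loss of brakes such as RB1 or the CDKN1B protein leads to tumours in mice, while in the healthy adult gland few cells divide. The clock reaches this machinery in several tissues, best known through WEE1, a kinase that holds CDK1 inactive and whose gene BMAL1 drives through E-boxes.

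Arntl, the gene for BMAL1, read 39.6, 51.7 and 38.6 on the wild-type arrays and 112.1, 102 and 127.5 on those labelled Bmal1-/-. The targeted gene thus reads higher, not lower, on the arrays labelled Bmal1-/- (log2 difference 1.13, SE 0.14, adjusted p = 0.000653). The sources used here do not give where this probe set lies relative to the deleted part, so it does not check the labels. Correlations between arrays over the tested probe sets were 0.980 to 0.986 within a genotype and 0.970 to 0.976 between them. The median intensity of all probe sets was 33.5 to 34.3 on wild-type arrays and 31.7 to 32.2 on the others, without overlap. All 7 hormone genes of the gland were measured, with Gh at 15480 to 20434. In whole glands, fewer cells of a type and less RNA per cell cannot be told apart.

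Of the 79 genes, 59 were bright enough to be tested, and 5 of these rose on the arrays labelled Bmal1-/-: Cdkn2b, Mycn, Ccnt1, Ccng2 and Cdk14. None fell. Without adjustment, 14 of the 59 had a limma p under 0.05, as did 1729 of all 8033 tested genes. The 5 called genes are 8.47% of the tested members, where 5.68% of all 8033 tested genes were called, 3% higher and 2.68% lower. The median log2 difference of the 59 was 0.06, and that of all tested genes -0.0003. Above 0 lay 35 of the 59, and 4012 of all 8033 tested genes. At 15 of the 59 members, or 25.4%, the arrays of the genotypes were fully separated, close to the 26.4% of all tested genes. The 5 genes that rose lie in 5 different role groups.

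**Figure D1:**
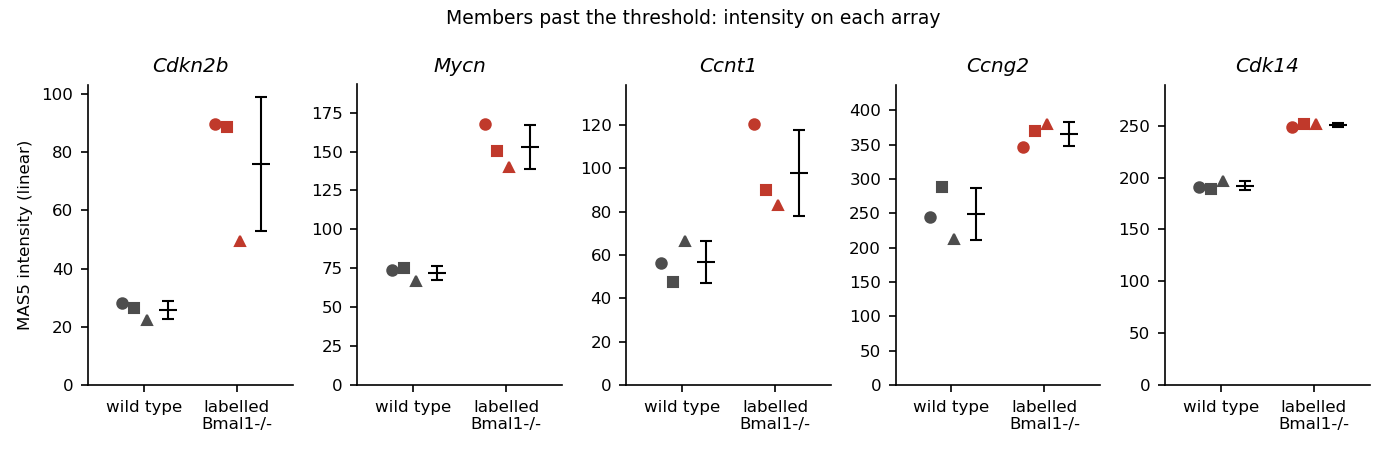
Linear intensity (y axis, from 0) of the 5 members past the threshold on each of 3 wild-type arrays (grey) and 3 arrays labelled Bmal1-/- (red). Circle, square and triangle are replicates 1, 2 and 3 or 4, 5 and 6, and bars give the mean ± SD. For each gene every red point lies above every grey one. Among the red Cdkn2b points, replicate 6 is nearest to the wild type. The lowest red and highest grey points are 83.0 and 66.5 for Ccnt1 and 346.4 and 288.1 for Ccng2.

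The CDK inhibitors held the largest difference of the whole set. Cdkn2b, whose product blocks CDK4 and CDK6, read 28.1, 26.6 and 22.2 in wild type and 89.8, 88.7 and 49.5 on the arrays labelled Bmal1-/-. All 3 arrays labelled Bmal1-/- were above all wild-type arrays, though replicate 6 read far lower than the other two. The mean rose from 25.6 ± 3.07 to 76.0 ± 23.0 (SD, n = 3), a log2 difference of 1.11 (SE 0.19, 95% interval 0.71 to 1.52, adjusted p = 0.00523). The gene has 1 probe set, and its wild-type level is near the dimmest tested intensity of 17.3. Its difference was 1.49 with a pseudocount of 1 and 0.63 with one of 64, and it passed in all 17 alternatives that kept it, at adjusted p of 0.00109 to 0.0316. Cdkn2a, its neighbour in the genome, was too dim to test, at 0.4 to 9.5 on all arrays.

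Cdkn1b, which encodes the inhibitor that restrains CDK2 in resting cells, lay on the other side. It read 370.7, 349.0 and 435.9 in wild type and 261.6, 339.9 and 219.8 on the arrays labelled Bmal1-/-. The genotypes did not overlap, with replicate 5 just under the lowest wild-type array. The log2 difference was -0.48 (SE 0.14, 95% interval -0.78 to -0.19), and it missed the threshold at an adjusted p of 0.0606. Without replicate 5 it was -0.64 and passed (0.0202), within a range of 0.0202 to 0.207 over its alternatives. Its second tested probe set was at -0.18 (adjusted p = 0.588).

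Cdkn1a, the inhibitor induced by p53, read 86.8, 80.0 and 118.0 in wild type and 84.8, 130.0 and 212.6 on the other arrays. Replicate 6 read highest and replicate 4 of the same genotype was within the wild-type range, so the genotypes overlapped. The difference of 0.45 (SE 0.24, 95% interval -0.07 to 0.96) did not pass (adjusted p = 0.304). It was 0.14 without replicate 6 and 0.74 without replicate 4, where the adjusted p was 0.0748, the lowest of its alternatives (highest 0.756). Cdkn1c, an imprinted inhibitor, went from 23.7 ± 6.68 to 35.9 ± 7.98 with overlap (0.39, 95% interval 0.0025 to 0.77, adjusted p = 0.234). Cdkn2c and Cdkn2d, the further inhibitors of CDK4 and CDK6, were within 0.09 of 0, with 95% intervals of -0.34 to 0.16 and -0.30 to 0.13. So of 6 tested inhibitors, 1 rose (16.7%, against 5.68% of all 8033 tested genes called), none fell and 5 did not pass.

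**Figure D2:**
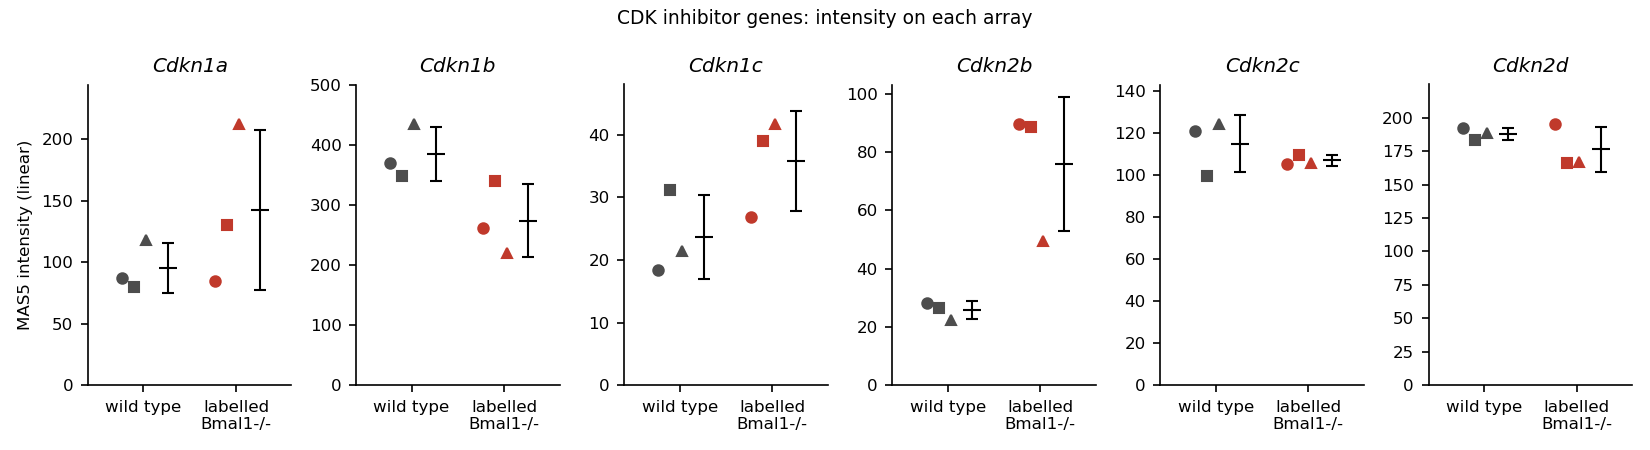
Linear intensity (y axis, from 0) of the 6 tested CDK inhibitor genes on each wild-type array (grey) and each array labelled Bmal1-/- (red), with mean ± SD. Cdkn2b and Cdkn1b separate the genotypes in opposite directions, Cdkn1a spreads from 84.8 to 212.6 among the arrays labelled Bmal1-/-, and Cdkn2c and Cdkn2d overlap.

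Among the transcription factors upstream of the cycle, Mycn rose while Myc did not pass. Mycn encodes N-MYC, which drives growth and proliferation in developing tissues. It read 73.9, 74.9 and 67.1 in wild type and 167.9, 150.6 and 140.0 on the arrays labelled Bmal1-/-. Every array labelled Bmal1-/- lay far above every wild-type array. The log2 difference was 0.94 (SE 0.11, 95% interval 0.69 to 1.19), with the smallest adjusted p of all members, 0.000664. It passed with any array left out, at adjusted p up to 0.00549. The other Mycn probe sets were too dim to test, at 1.5 to 21.8, and averaging them in gave 0.44 (adjusted p = 0.122, the only alternative of 18 in which the call was lost). Myc, its paralogue, read 17.7, 37.5 and 25.7 against 27.9, 19.0 and 20.7, a difference of -0.14 (95% interval -0.55 to 0.27).

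The promoters shown here are those of some genes that rose and of some that did not pass, marked for clock and cell cycle motifs. RefSeq promoters (build GRCm38.p6) were in hand for 65 of the 79 genes, and the 250 bases before each start were searched on both strands. Capitals mark the E-box CACGTG, the E2F motifs TTTCCCGC and TTTGGCGC, and the CHR motif TTTGAA of mitotic genes, or their reverse complements. Mycn (chr12:12941837-12942086, minus strand) is the called member with E2F letters, and it also has a CHR match. Cdkn2b (chr4:89311033-89311282, minus strand) has a CHR match only. Ccng2 (chr5:93267323-93267572, plus strand) has none of the 3, and neither do the called members Ccnt1 and Cdk14, which are not shown. Cdk4 (chr10:127063285-127063534, plus strand) and Cdk7 (chr13:100730943-100731192, minus strand) are shown for their E-boxes, and Mcm6 (chr1:128359706-128359955, minus strand) for its E2F letters.
Mycn: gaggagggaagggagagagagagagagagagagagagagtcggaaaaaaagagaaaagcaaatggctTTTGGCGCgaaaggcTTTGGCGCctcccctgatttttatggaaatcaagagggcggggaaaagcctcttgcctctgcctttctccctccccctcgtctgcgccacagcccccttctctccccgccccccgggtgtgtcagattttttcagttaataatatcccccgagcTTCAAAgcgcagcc
Cdkn2b: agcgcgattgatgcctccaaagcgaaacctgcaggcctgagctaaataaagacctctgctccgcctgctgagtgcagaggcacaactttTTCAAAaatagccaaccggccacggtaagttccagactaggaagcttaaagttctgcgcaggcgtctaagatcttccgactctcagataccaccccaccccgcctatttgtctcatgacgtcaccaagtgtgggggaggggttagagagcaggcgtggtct
Ccng2: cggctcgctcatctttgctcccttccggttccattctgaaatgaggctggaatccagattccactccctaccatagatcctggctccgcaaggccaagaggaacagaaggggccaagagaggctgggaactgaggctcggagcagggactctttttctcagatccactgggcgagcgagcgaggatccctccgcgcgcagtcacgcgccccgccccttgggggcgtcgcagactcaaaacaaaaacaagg
Cdk4: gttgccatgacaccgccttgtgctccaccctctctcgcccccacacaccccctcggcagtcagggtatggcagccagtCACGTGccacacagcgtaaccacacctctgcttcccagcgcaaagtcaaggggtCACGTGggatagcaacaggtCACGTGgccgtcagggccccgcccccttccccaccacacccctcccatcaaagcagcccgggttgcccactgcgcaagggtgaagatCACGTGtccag
Cdk7: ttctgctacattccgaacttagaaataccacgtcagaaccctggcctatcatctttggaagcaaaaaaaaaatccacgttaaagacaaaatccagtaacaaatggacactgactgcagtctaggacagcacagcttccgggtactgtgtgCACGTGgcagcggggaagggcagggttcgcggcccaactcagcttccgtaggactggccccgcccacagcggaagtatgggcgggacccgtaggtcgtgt
Mcm6: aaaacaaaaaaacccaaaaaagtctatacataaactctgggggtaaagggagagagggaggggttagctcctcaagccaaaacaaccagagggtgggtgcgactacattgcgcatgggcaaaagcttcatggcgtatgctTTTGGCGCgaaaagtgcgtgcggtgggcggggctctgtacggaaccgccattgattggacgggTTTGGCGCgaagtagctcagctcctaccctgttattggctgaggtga

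The E-box letters occurred in 7 of the 65 promoters (10.8%), against 9.19% of genes on the array and 6.86% of all RefSeq promoters. The 7 were Cdk4, Cdk6, Cdk7, Cdk8, Cdk18, Cdk20 and E2f3. Counting CACGTT as well, it was 8 of 65. None of the 5 genes that rose was among them, which says only that the letters are not in this window. The Cdk4 window holds 4 matches, starting 172, 118, 98 and 11 bases before the start. Of the 4 tested genes with E-box letters, none passed, and their differences were 0.28 for Cdk4, -0.32 for Cdk7, 0.05 for Cdk8 and 0.06 for Cdk20. The E2F letters occurred in 9 of 65 (13.8%), against 2.51% of genes on the array and 1.51% of all promoters. The 9 were Cdc25a, Cdc6, Cdk2, Cdkn2a, E2f3, Mcm5, Mcm6, Mcm7 and Mycn. Of these, Cdc6, Cdkn2a and E2f3 were not tested, and among the tested ones Mycn alone rose. CHR letters were in 24.6% of the members' promoters, 13.8% of those of genes on the array and 18.3% of all.

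None of the tested E2F factors passed, and neither did Rb1. E2f5, a repressor-type E2F, read 72.0, 53.6 and 59.8 in wild type and 49.6, 45.7 and 43.8 on the other arrays. Its genotypes did not overlap, but the difference of -0.31 (95% interval -0.61 to -0.01) did not pass (adjusted p = 0.214). E2f4 and E2f6, also repressor-type, were at -0.05 and -0.03. Rb1, the brake that holds E2F, read 87.0, 93.6 and 73.1 against 106.7, 109.0 and 84.3, with overlap (0.20, 95% interval -0.08 to 0.49). E2f1, E2f3 and E2f8 were not tested, at 2.2 to 14.1.

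The D cyclins and CDK4, the entry to the cycle, had no gene past the threshold among the 4 tested. Ccnd1 read 663.3, 661.3 and 639.5 in wild type and 570.7, 506.8 and 585.5 on the arrays labelled Bmal1-/-. Every wild-type array was above every other one, and the difference was -0.24 (SE 0.08, 95% interval -0.41 to -0.07, adjusted p = 0.102). The other Ccnd1 probe sets were at -0.24 and -0.43 (adjusted p of 0.155 and 0.0613). With the 3 averaged, Ccnd1 was at -0.30 and passed (0.0431), within a range of 0.0431 to 0.339 over its alternatives.

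Cdk4, the kinase partner of the D cyclins, went the opposite way. It read 302.7, 310.0 and 271.6 in wild type and 370.1, 345.0 and 366.8 on the other arrays, again without overlap. The difference was 0.28 (SE 0.09, 95% interval 0.09 to 0.47, adjusted p = 0.0824). This probe set is of the _x_at type, which can pick up related transcripts, and the 2 others were at 0.43 and 0.17. Ccnd2, read by 7 probe sets, lay at -0.02 in the brightest (95% interval -0.19 to 0.15) and between -0.28 and 0.13 in the rest. Ccnd3 was at 0.01 (95% interval -0.24 to 0.27). Cdk6 was too dim to test, at 0.4 to 9.6.

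**Figure D3:**
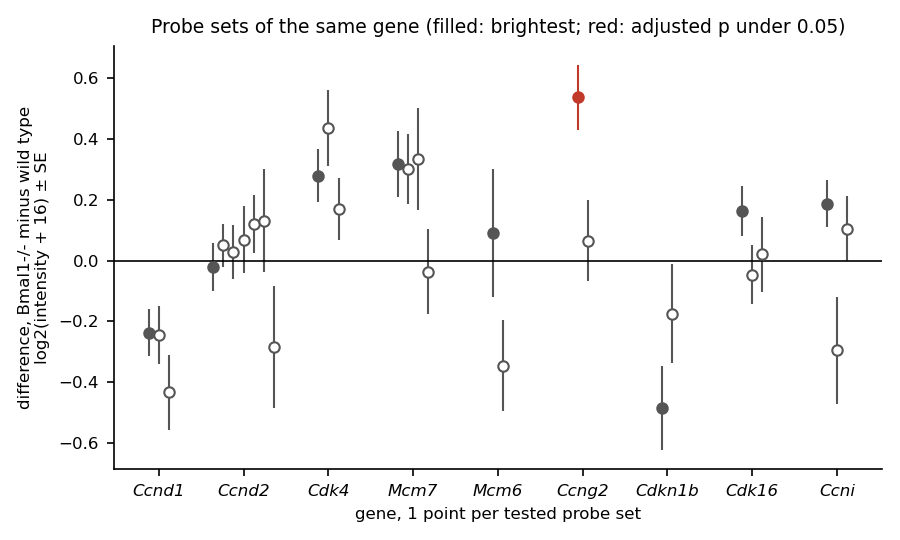
Log2 difference, arrays labelled Bmal1-/- minus wild type, ± SE (y axis) for every tested probe set of 9 members (x axis). Filled points are the brightest probe set and red marks an adjusted p under 0.05; the 3 Ccnd1 probe sets are below 0 and the 3 Cdk4 probe sets above it, whereas the second Ccng2 probe set lies at 0.07.

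Of 12 replication genes and proliferation markers, 8 were tested and none passed. Above 0 lay 7 of the 8, with a median of 0.11, and 4012 of all 8033 tested genes. Mcm7, a subunit of the helicase that opens DNA at replication origins, came nearest. It read 143.3, 153.0 and 125.3 in wild type and 193.2, 172.4 and 170.7 on the arrays labelled Bmal1-/-, without overlap. The difference was 0.32 (SE 0.11, 95% interval 0.08 to 0.55, adjusted p = 0.108), and its 3 other probe sets were at 0.30, 0.33 and -0.04. The Mcm7 reading could include related sequences, since its brightest probe set is of the _s_at type.

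Of the other helicase subunits, Mcm2, Mcm5 and Mcm6 were at 0.13, 0.12 and 0.09 and Mcm4 at -0.04, all with overlapping genotypes. With all their probe sets averaged, Mcm2 and Mcm6 were at -0.020 and -0.13. Mcm6 ranged from 46.5 to 101.7 among the arrays labelled Bmal1-/-, wider than its wild-type range of 56.5 to 80.6. Mcm3 was too dim, at 9.5 to 17.1. Pcna, the sliding clamp of DNA polymerase, read 393.1, 476.1 and 439.0 against 461.0, 461.4 and 485.0 (0.11, 95% interval -0.08 to 0.29).

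Markers of dividing cells were close to the floor of the arrays. Mki67, which encodes the Ki-67 antigen, read 2.1, 30.5 and 8.0 in wild type and 17.4, 17.1 and 26.9 on the other arrays, and was not tested. Wild-type replicate 2 held the highest value and wild-type replicate 1 the lowest. Top2a, a topoisomerase of S phase and mitosis, read 18.5, 28.9 and 13.0 against 17.1, 16.1 and 29.5 (0.04, 95% interval -0.41 to 0.48). Cdk1, the mitotic kinase, read 12.3 to 20.9 in wild type and 7.4 to 29.0 on the arrays labelled Bmal1-/-.

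The cyclins of S phase and mitosis gave no call either. Ccna2, which pairs with CDK2 and CDK1, was at -0.09 (95% interval -0.51 to 0.32), Ccne2 at 0.02 and Cdk2 at -0.14 (95% interval -0.48 to 0.20). The phosphatases Cdc25a and Cdc25b, which activate CDKs, were at -0.14 and -0.20, and Cdc20, an activator of the mitotic ubiquitin ligase, at -0.21. All 6 had overlapping genotypes and adjusted p of 0.503 to 0.972. Ccne1, Ccna1, Ccnb2, Ccnb3, Ccnf and Cdc25c were not tested, with all values at or under 25.4.

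**Figure D4:**
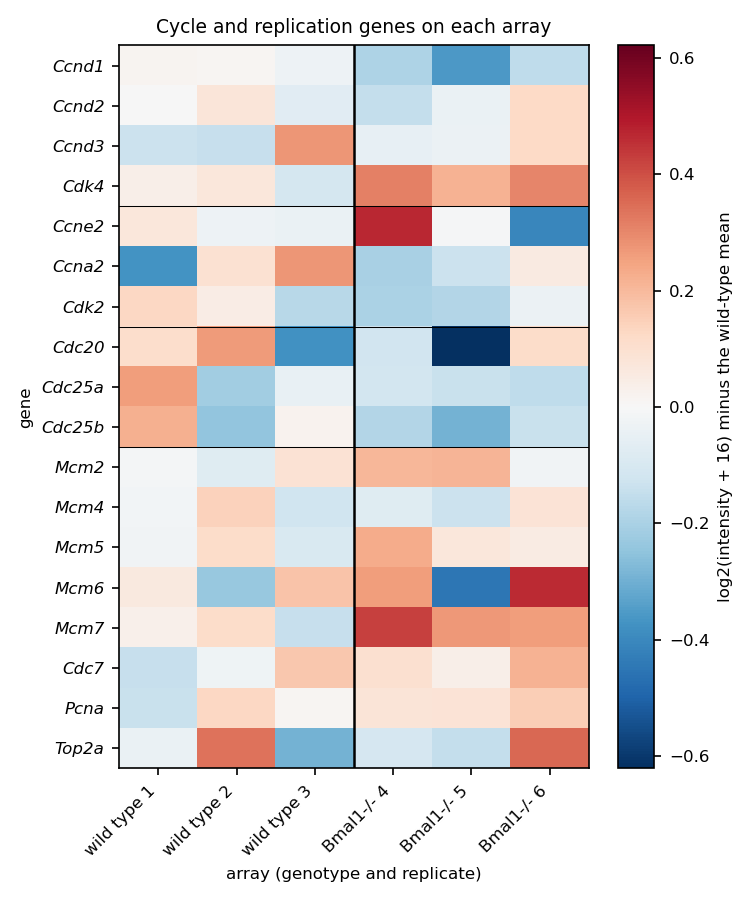
Log2(intensity + 16) minus the wild-type mean (colour scale) for 18 tested cycle and replication genes (rows) on each array (columns), wild type left of the black line and labelled Bmal1-/- right of it. Ccnd1 is lower and Cdk4 and Mcm7 are higher on all 3 arrays labelled Bmal1-/-, while Ccne2, Cdc20, Mcm6 and Top2a vary as much within a genotype as between genotypes.

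Of the transcription cyclins and their kinases, 11 were tested and 1 rose (9.09%, against 5.68% of all 8033 tested genes called). Ccnt1 encodes cyclin T1, which with CDK9 forms the elongation factor that releases paused RNA polymerase II. It read 56.2, 47.4 and 66.5 in wild type and 120.6, 89.9 and 83.0 on the arrays labelled Bmal1-/-, without overlap. The difference was 0.64 (SE 0.15, 95% interval 0.31 to 0.98, adjusted p = 0.0324). The call was lost without wild-type replicate 1 (0.0806) or 2 (0.0687) or replicate 4 (0.119) or 5 (0.0743), within 0.0255 to 0.119 over its alternatives. Its partner Cdk9 was at -0.02 (95% interval -0.22 to 0.18), and the related Ccnt2 at 0.09.

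Cdk7, the kinase that activates other CDKs and starts transcription, read 172.6, 146.5 and 152.3 against 134.5, 121.0 and 112.0. The genotypes did not overlap, and the difference of -0.32 (SE 0.11, 95% interval -0.56 to -0.08) did not pass (adjusted p = 0.114). Its cyclin, Ccnh, was at 0.07. The mediator pair Ccnc and Cdk8 were at 0.07 and 0.05, and the splicing-linked Ccnl1, Ccnl2 and Cdk11b at -0.04, -0.08 and -0.03. Ccnk was at 0.13, and its partner Cdk12 was too dim to test.

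Ccng2 rose among the other cyclins. It encodes an atypical cyclin found in arrested cells and is a target of FOXO factors. It read 245.0, 288.1 and 213.2 in wild type and 346.4, 370.0 and 380.4 on the arrays labelled Bmal1-/-. The lowest of the latter lay above the highest wild-type array. The difference was 0.54 (SE 0.11, 95% interval 0.30 to 0.77, adjusted p = 0.0144). Its second probe set read 74.9, 87.0 and 69.1 against 90.2, 69.9 and 84.1, with overlap and a difference of 0.07, so the 2 probe sets of this gene disagree. The call was lost without wild-type replicate 3 (0.0571) or replicate 5 (0.0573) or 6 (0.0535), and with both probe sets averaged (0.30, adjusted p = 0.112), within 0.00421 to 0.112 over its alternatives. Its paralogue Ccng1, a p53 target, was at -0.02 (95% interval -0.19 to 0.15). Ccni, an atypical cyclin abundant in resting cells, was at 0.19 (adjusted p = 0.190), with its 2 other probe sets at -0.29 and 0.11.

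In the group of CDK5 and other kinases, all 6 tested genes lay above 0 and 1 passed. Of all 8033 tested genes, 4012 lay above 0 and 5.68% passed. Cdk14, a membrane-linked kinase that works with cyclin Y in WNT signalling, read 191.0, 189.3 and 196.8 in wild type and 249.0, 252.0 and 251.5 on the other arrays. The arrays of each genotype lay close together, at 192 ± 3.93 and 251 ± 1.61 (SD, n = 3). The difference was 0.36 (SE 0.09, 95% interval 0.17 to 0.55, adjusted p = 0.0338). With any 1 array left out it stayed between 0.35 and 0.37 but missed the threshold (0.0561 to 0.112), and with its dim probe sets averaged in, it was 0.22 (0.477). Over all alternatives the adjusted p ran from 0.0300 to 0.477. Cdk5, the neuronal kinase also active in endocrine cells, was at 0.15, its activators Cdk5r1 and Cdk5r2 at 0.16 and 0.11, and Cdk16 at 0.16 (adjusted p = 0.282).

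The 9 genes outside the role groups, taken by the first letters of their symbols, gave no call. Of the 8 tested, the smallest p-values were those of Ccndbp1, which binds cyclin D1 (0.22, 95% interval 0.01 to 0.42, adjusted p = 0.209), and Cdk2ap1 (0.17, adjusted p = 0.247). Both separated the genotypes, as did Cdc73, a subunit of the transcription elongation complex PAF1 (-0.18, adjusted p = 0.281). These 3 are 37.5% of the 8 tested, where 26.4% of all 8033 tested genes were separated.

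**Figure D5:**
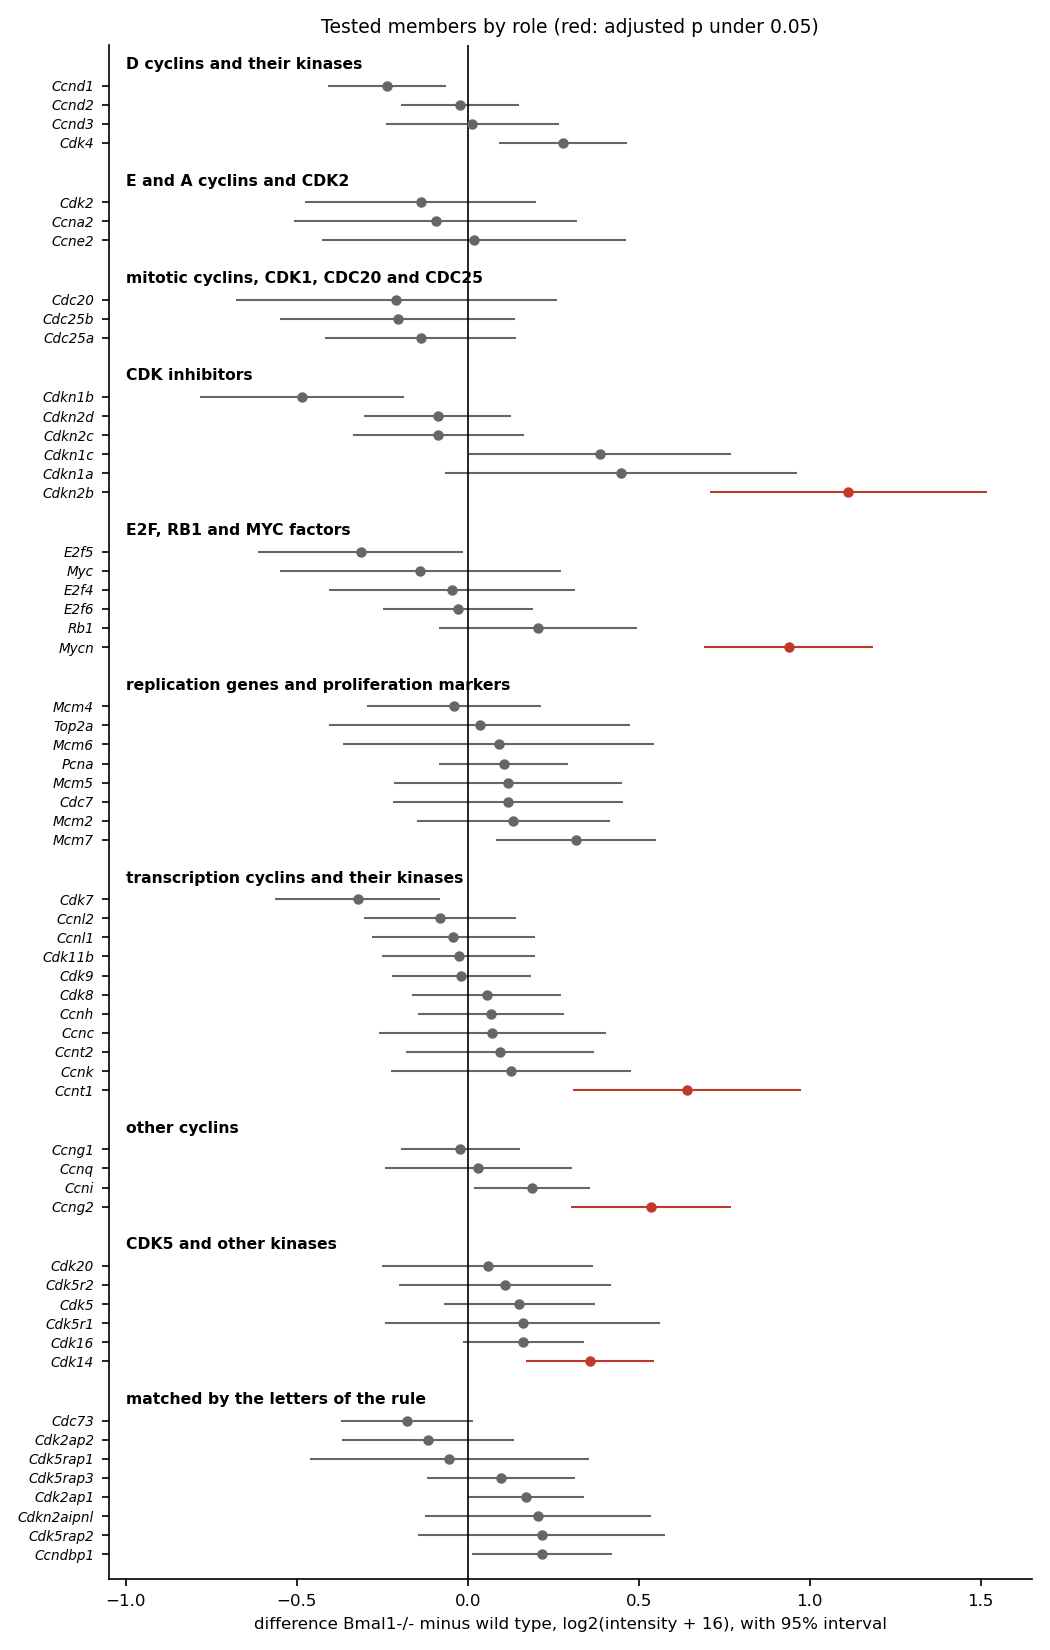
Difference of each of the 59 tested members, arrays labelled Bmal1-/- minus wild type, on the log2(intensity + 16) scale (x axis) with its 95% interval, ordered by role (y axis). The 5 red genes passed an adjusted p under 0.05 and all lie above 0, from 0.36 (Cdk14) to 1.11 (Cdkn2b), while the other 54 lie between -0.48 and 0.45.

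Across members, 23 had more than 1 tested probe set, and in 11 of these all tested probe sets pointed the same way. Among the 11 were Ccnd1, Cdk4, Cdkn1b and E2f5. The same count was not made over all genes, so no background share stands beside it. Of the 5 called genes, Ccng2 alone had a second tested probe set. The 20 members left untested included Cdk18, the one among them whose genotypes did not overlap, at 15.2, 6.4 and 9.6 in wild type against 4.5, 2.8 and 6.3. No member lies within 20 Mb of Arntl, where the DNA around a targeted gene can differ between strains.

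Other genes of the pathway were read from lists. Of 10 tested checkpoint and mitotic kinases, only Wee1 changed (10%, against 5.68% of all 8033 tested genes). It read 79.9, 73.1 and 97.7 in wild type and 33.6, 34.6 and 41.5 on the arrays labelled Bmal1-/-. The log2 difference was -0.92 (SE 0.14, 95% interval -1.22 to -0.61, adjusted p = 0.00331). Wee1 lies within 20 Mb of Arntl, and the part of that position in its fall was not tested. Cdc25a and Cdc25b, whose products activate CDKs, did not pass, as given above.

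Among 10 tested pocket proteins, DREAM subunits and MYC partners, 2 rose (20%, against 5.68% of all 8033 tested genes called) and none fell. Both encode proteins that pair with MAX and oppose MYC at its sites: Mnt, from 110 ± 15.1 to 168 ± 29.5 (0.54, SE 0.14, adjusted p = 0.0390), and Mxd4, from 157 ± 30.5 to 224 ± 11.5 (0.48, SE 0.12, adjusted p = 0.0417). Their calls were lost in 7 and 8 of 18 alternatives, at adjusted p up to 0.345 and 0.318. For Mnt these included leaving out wild-type replicate 1 (0.0806) or 3 (0.142) or replicate 5 (0.154) or 6 (0.0816), and for Mxd4 any array but wild-type replicate 2 (0.0803 to 0.149). The other tested Mxd4 probe sets were at 0.06 and 0.18. Max and Mxi1 were at -0.24 and -0.04 and did not pass. Foxm1 and Mybl2, activators of mitotic genes, were too dim to test.

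Of 17 tested p53-axis and growth arrest genes, 1 rose and 2 fell (17.6%, against 5.68% of all 8033 tested genes called). Phlda3, a p53-induced inhibitor of AKT, fell from 81.0 ± 4.92 to 39.1 ± 8.04 (-0.83, SE 0.14, adjusted p = 0.00648) and passed in all 18 alternatives. Btg1, an antiproliferative gene of resting cells, fell by 0.36 (SE 0.08, adjusted p = 0.0226), and its second probe set by 0.41. Sesn3, a stress-induced FOXO target, rose by 0.42 (SE 0.09, adjusted p = 0.0239). Both calls were lost without wild-type replicate 1 or 3 or replicate 5 or 6, and the Sesn3 call also without replicate 4. Over all alternatives the adjusted p ran from 0.0128 to 0.107 for Btg1 and from 0.0101 to 0.0903 for Sesn3. In the other 3 lists of the machinery no tested gene passed in limma: 25 licensing, fork and nucleotide genes (2 at an unadjusted p under 0.05), 11 spindle and cytokinesis genes (1) and 19 genes of the SCF and APC/C ubiquitin ligases (1). The smallest p-values there were those of the origin recognition gene Orc5 (0.33, adjusted p = 0.101), the condensin gene Smc2 (0.52, 0.140) and Anapc11 (0.30, 0.0518). Without wild-type replicate 1, the lowest of its group, Smc2 was at 0.27 (0.345, in a range of 0.0700 to 0.345 over its alternatives).

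Of 9 tested genes known from pituitary tumours, Gnas, the stimulatory G protein, fell (-0.27, SE 0.06, adjusted p = 0.0153) and Sdhc rose (0.41, SE 0.09, adjusted p = 0.0219). They are 22.2% of the tested genes of this list, where 5.68% of all 8033 tested genes were called. The other Sdhc probe set was at -0.32, and with both averaged Sdhc was at 0.04 (adjusted p = 0.827, in a range of 0.0187 to 0.827). The Gnas call ended with quantile normalization (-0.04, adjusted p = 0.688), and over all alternatives ran from 0.00831 to 0.688. It was also lost without wild-type replicate 3 or replicate 4 or 6 (up to 0.0788), and the Sdhc call without wild-type replicate 1 or replicate 4, 5 or 6 (up to 0.0774). Meg3 did not pass (-0.40, SE 0.11, adjusted p = 0.0613), though its genotypes did not overlap. Pttg1, the securin first found in pituitary tumour cells, was at 0.10 (95% interval -0.08 to 0.27), and Men1 at 0.02.

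Some markers of the gland's cell types differed between the genotypes, while those of other cell types gave no call. Over the array, 5.68% of the 8033 tested genes were called, 3% higher and 2.68% lower. Of the 7 hormone genes 6 were below 0, Cga and Gh fell, and the summed intensity was 61039 to 69435 in wild type and 55221 to 58054 on the arrays labelled Bmal1-/-. Whether the falls of Gh and Cga hold under quantile normalization was not examined. With it Gnas, another bright gene, no longer passed (-0.04, adjusted p = 0.688). Of 7 pericyte and fibroblast markers, Rgs5 (-0.77) and Dcn (-0.80) fell and Col1a2 rose (0.30), and their summed intensity was 1994 to 2100 in wild type and 1647 to 1685 on the arrays labelled Bmal1-/-. All 6 tested macrophage markers were below 0, with C1qa past the threshold (-0.48), and the sum over the 8 listed ones went from 468 to 520 down to 361 to 400. None of 7 endothelial markers passed, and their sums overlapped (322 to 401 and 353 to 403). None of the 4 tested folliculostellate markers passed, and the sums over the 5 on the array overlapped (369 to 440 and 343 to 385). The fifth, S100b, was too dim to test, at 11.1 to 13.8 in wild type and 0.4 to 7.0 on the arrays labelled Bmal1-/-. Of the posterior lobe and glia list, Mbp, a myelin gene, rose (0.52), with sums of 255 to 272 and 320 to 356. Cnp of the same list did not pass (0.28, adjusted p = 0.162). Gfap, too dim to test, went the other way, from 17.9 ± 8.84 to 9.37 ± 3.18 with overlap. Nkx2-1 was also too dim, at 0.4 to 9.5 on all arrays. Neither of 2 tested hypothalamic genes passed, nor did the 1 tested red cell gene. The hypothalamic Oxt was at -0.57 without overlap (adjusted p = 0.0565), and Slc17a6 at -0.04. Of 5 listed lymphocyte genes on the array only Ptprc was bright enough to test (-0.08). Whether these shifts play a part in Cdkn2b, Mycn, Ccnt1, Ccng2 or Cdk14 was not tested.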

How the data were processed

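Biotin-labelled cRNA from 1 ug of total RNA per pool was hybridised to Affymetrix mouse arrays, per the labels. The deposited intensity values are linear MAS5 signals, per the submitters' processing notes. The sources used here give neither the MAS5 version nor detection calls, and the labels name no batch. The mean after trimming 2% from each end was 100.0 on all arrays. Of 22690 probe sets, 64 controls were left out. The platform annotation gave 1 gene for 20393 probe sets, several for 691 and none for 1606.

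Intensities were transformed as log2(intensity + 16), and testing was limited to the brightest 60% of probe sets (13576). limma 3.58.1 in R 4.3.3 (lmFit, eBayes with an intensity trend, two-sided) compared the genotypes, and p-values were adjusted by Benjamini-Hochberg across everything tested. The procedure was tested on simulated data. The number of arrays limits the precision. Members and lists were chosen with earlier results of these data known. Named genes are all members past the threshold, the 2 with the smallest p in role groups without one, members well known in the cycle, and listed pathway genes past the threshold or with the smallest p. Further members are given by value. Promoters come from RefSeq, GRCm38.p6. The alternatives included a pseudocount of 1 or of 64, quantile normalization, equal medians, no filter, the top 40%, no variance trend, robust eBayes, array weights, each array left out, other probe set choices, members in the 9 role groups alone, removal of genes within 20 Mb of Arntl, and a threshold of 0.1.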

Additional observations from a re-analysis of the deposited data

How the results depend on the processing

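The count of 5 changed members was 3 with no filter on dim probe sets, 2 without the variance trend, 3 with each gene's probe sets averaged, and 3 with any 1 array left out, where fewer samples enter. The 3 were not always among the 5. With probe sets averaged, Mycn, Ccng2 and Cdk14 were lost, and Ccnd1 passed as a fall (-0.30, adjusted p = 0.0431). Without replicate 5, Ccnt1, Ccng2 and Cdk14 were lost, and Cdkn1b passed as a fall (-0.64, adjusted p = 0.0202). The median member difference of 0.06 was 0.019 with no filter and 0.014 with probe sets averaged. The 456 changed genes over the array became 220 with no filter, 249 without the variance trend, 852 at a threshold of 0.1, and 208 to 560 with 1 array left out. Values of genes that did not pass turned sign 12 times, none of them past the threshold. With probe sets averaged, Ccnd2, Mcm2 and Mcm6 turned to 0.014, -0.020 and -0.13. With 1 array left out, Ccnd2 ran from -0.096 to 0.042 (turning without wild-type replicate 2 or replicate 4), Myc from -0.30 to 0.033 (wild-type replicate 2), Mcm4 from -0.10 to 0.030 (wild-type replicate 2 or replicate 5), Mcm6 from -0.095 to 0.36 (wild-type replicate 2 or replicate 6) and Top2a from -0.13 to 0.20 (wild-type replicate 3 or replicate 6). The difference of Ccnt1 was 0.42 with a pseudocount of 64. Of the named genes' values under alternatives, 609 kept their direction and side of the threshold, 63 lost the call and 5 gained it. No paired analysis was possible because the genotypes share no replicate numbers. No detection calls were used.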
